A study of Mus musculus with 6 samples.

Results

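Protein-coding promoters without a CpG island were 452 of the 11787 promoters measured, and 452 of the 11531 measured on autosomes. A promoter spanned 1000 bp before and 500 bp after a gene's annotated 5′ end, and it counted as measured with at least 3 cytosines of 6 or more reads in all 6 libraries. It was island-free where no 200-bp window of at least 50% GC reached an observed/expected CpG ratio of 0.6, so sequence alone chose the members and no methylation value did. The remaining 11079 autosomal promoters held such an island. Annotated nuclear protein-coding genes numbered 21938, so many promoters were not measured. The minimum of 3 covered cytosines left out CpG-poor promoters, among them 210 autosomal island-free ones with 2. Shares given here are therefore of measured promoters and not of all promoters of the genome.

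The 6 libraries were made by Ox-RRBS, a bisulfite sequencing of CpG-rich fragments with an oxidation step, from the whole cortex of C57BL/6 embryos at E16. MspI cuts the DNA at CCGG, 5-hydroxymethylcytosine is oxidised so that it reads as unmethylated, and the level of a cytosine is the percentage of its reads that are still C, the 5-methylcytosine (5mC) level. The 3 control embryos were heterozygous for Uhrf1 (Uhrf1 +/-) and the 3 cKO embryos lacked both functional copies (Uhrf1 -/-). Embryos of both groups carried Emx1-Cre, which recombines the floxed allele in the dorsal telencephalon from about the onset of neurogenesis. Ventrally derived interneurons, vessels and microglia in the dissected cortex are therefore outside the deletion, whether or not they express Uhrf1. The files hold no measure of the deletion itself.

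Uhrf1 binds hemimethylated CpG behind the replication fork and brings Dnmt1, which copies methylation to the new strand, so cells that divide without it dilute their 5mC. Most mouse promoters lie in CpG islands, which are normally unmethylated whether or not the gene is active. Promoters without an island have few CpGs, usually belong to genes used in one tissue, and are commonly methylated in tissues where the gene is silent.

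Control replicate 1 stood apart from the other controls. Its mean level over the island-free promoters was 18.9% against 53.2% (replicate 2) and 52.9% (replicate 3), and it lay within the cKO libraries at 24.2%, 23.6% and 18.4%. Group means, tests and counts over all members are therefore given with all 6 libraries and without control replicate 1, while shares left, lists and single promoters are set against control replicates 2 and 3. Leaving it out is a choice made by its outcome, and nothing in the labels explains its level. Levels called control below are the mean of control replicates 2 and 3 unless all 6 libraries are named. Libraries listed 1013899 to 1302925 cytosines with 18238737 to 31019082 reads in total, and the thinnest library of a member held 18 reads at least and 79 reads at the median member. Nothing ties the libraries to litters, so a p-value here reflects how libraries, possibly of 1 litter, vary.

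The sequence of the members shows how sparse their CpGs are. The median member held 23 CpGs and had an observed/expected ratio of 0.240, against 76 CpGs and 0.669 for the island promoters, while GC content was less different at 51.2% and 55.6%. Stretches of 150 bases upstream of 8 genes follow, from GRCm38, 5′ to 3′ on the gene's strand and clear of annotated exons. Capitals mark the CpGs that were covered in all 6 libraries. They are shown for their values over the whole promoter, which hold more cytosines than the stretch. Cebpe, Nedd9, Ccl22 and Olfr1342 fell far in cKO, Gm21738 and Fam47e kept a large part of their level, and Edn2 and G430095P16Rik were low in control. Ccl22 and Olfr1342 were added after their values were seen.
Cebpe: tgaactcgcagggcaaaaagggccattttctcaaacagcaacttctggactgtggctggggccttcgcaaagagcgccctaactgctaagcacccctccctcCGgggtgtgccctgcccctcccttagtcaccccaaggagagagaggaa
Nedd9: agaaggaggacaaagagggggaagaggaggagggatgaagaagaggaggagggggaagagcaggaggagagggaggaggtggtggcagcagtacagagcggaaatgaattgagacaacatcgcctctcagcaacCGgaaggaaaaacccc
Ccl22: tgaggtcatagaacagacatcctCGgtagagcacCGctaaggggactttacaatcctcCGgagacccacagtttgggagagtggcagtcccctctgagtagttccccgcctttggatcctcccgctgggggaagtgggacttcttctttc
Olfr1342: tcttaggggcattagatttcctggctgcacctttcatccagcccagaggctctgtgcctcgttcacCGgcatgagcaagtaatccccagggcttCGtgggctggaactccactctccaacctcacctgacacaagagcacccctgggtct
Gm21738: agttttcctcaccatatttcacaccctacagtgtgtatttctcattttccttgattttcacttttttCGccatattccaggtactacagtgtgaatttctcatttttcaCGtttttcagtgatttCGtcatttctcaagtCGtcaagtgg
Fam47e: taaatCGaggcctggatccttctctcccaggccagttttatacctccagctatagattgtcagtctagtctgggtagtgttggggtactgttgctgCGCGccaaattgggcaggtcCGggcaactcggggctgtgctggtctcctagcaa
Edn2: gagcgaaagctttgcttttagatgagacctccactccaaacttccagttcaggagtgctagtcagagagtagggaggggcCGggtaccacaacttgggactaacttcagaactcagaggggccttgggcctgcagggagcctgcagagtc
G430095P16Rik: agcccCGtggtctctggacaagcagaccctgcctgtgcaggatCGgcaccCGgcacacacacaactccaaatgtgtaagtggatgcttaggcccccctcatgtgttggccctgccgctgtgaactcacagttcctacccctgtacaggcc

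These stretches lie at chr14:54712175-54712324, minus strand (Cebpe), chr13:41487363-41487512, minus strand (Nedd9), chr8:94745440-94745589, plus strand (Ccl22) and chr4:118692757-118692906, minus strand (Olfr1342). The others lie at chr14:19418931-19419080, minus strand (Gm21738), chr5:92554874-92555023, plus strand (Fam47e), chr4:120161056-120161205, plus strand (Edn2) and chr8:84722634-84722783, plus strand (G430095P16Rik). The single covered CpG of the Cebpe stretch is in an MspI site and had 81.8% and 70.3% in control replicates 2 and 3, 20% in control replicate 1, and 23.7%, 38.5% and 25.4% in the cKO libraries, from at least 33 reads. The 3 covered CpGs of the Ccl22 stretch had a control level of 82.8% and a cKO level of 29.0%, and the 4 of the Gm21738 stretch had 74.8% and 39.1%. At the 4 covered CpGs of the Fam47e stretch, the control level was 53.7% and the cKO level 31.6%. The marked CpG of Nedd9 had 77.0% and 29.5%, from at least 13 reads. The 2 marked CpGs of Olfr1342 had 15.4% and 53.8% in control replicates 2 and 3, against 14.3%, 11.6% and 7.02% in cKO, so the controls differed more from each other there than over the whole promoter. The marked CpG of Edn2 was above its promoter's level, at 20% and 22.2% in those controls and 5%, 19.2% and 17.6% in cKO from as few as 10 reads, and the 3 of G430095P16Rik had 9.67% and 16.7% on average.

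Methylation of the island-free promoters was far below control replicates 2 and 3 in every cKO library. Their mean level, with each promoter weighing the same, was 53.1% ± 0.171 (SD, n = 2) in control and 22.1% ± 3.20 (SD, n = 3) in cKO. The difference was -31.0 points, and 41.6% of the control level was left. The two-sided exact permutation test gave p = 0.1 (adjusted over 3 comparisons, 0.1), the smallest that 2 against 3 libraries allow. With control replicate 1 included, the control mean was 41.7% ± 19.7 (SD, n = 3), the difference was -19.6 points, and the groups overlapped (exact permutation p = 0.3, adjusted 0.3), where 0.1 is the smallest p possible. In control replicate 1 the mean was 35.6% of that of the other controls.

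Island promoters, measured in the same libraries, had little methylation to lose. Their mean was 2.09%, 4.22% and 4.06% in control replicates 1, 2 and 3 and 2.91% on average in cKO. The change in the island-free promoters exceeded that in the island promoters by 29.8 points without control replicate 1 (exact permutation p = 0.1, adjusted 0.1) and by 19.1 points with it (exact permutation p = 0.3, adjusted 0.3). Island-free promoters were 269 of the 577 autosomal promoters with a control level of 50% or more, which is 46.6%, although they were 3.92% of the autosomal promoters measured.

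In control most island-free promoters were at 50% or more, with a smaller number under 10% and the rest between. In cKO few remained at 50% or more. Of the 452, 163 had a control level of at least 75%, 106 of 50 to 75%, 57 of 25 to 50%, 49 of 10 to 25% and 77 under 10%. In cKO, 0 averaged 75% or more, 6 averaged 50 to 75%, 204 lay at 25 to 50%, 132 at 10 to 25% and 110 under 10%. The median went from 65.96% to 23.85%. By library, 268 promoters were at 50% or more in control replicate 2 and 268 in control replicate 3, against 12 in control replicate 1 and 22, 20 and 6 in cKO replicates 1, 2 and 3. The curves of the levels by library show the libraries in 2 separate bundles.

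**Figure D1:**
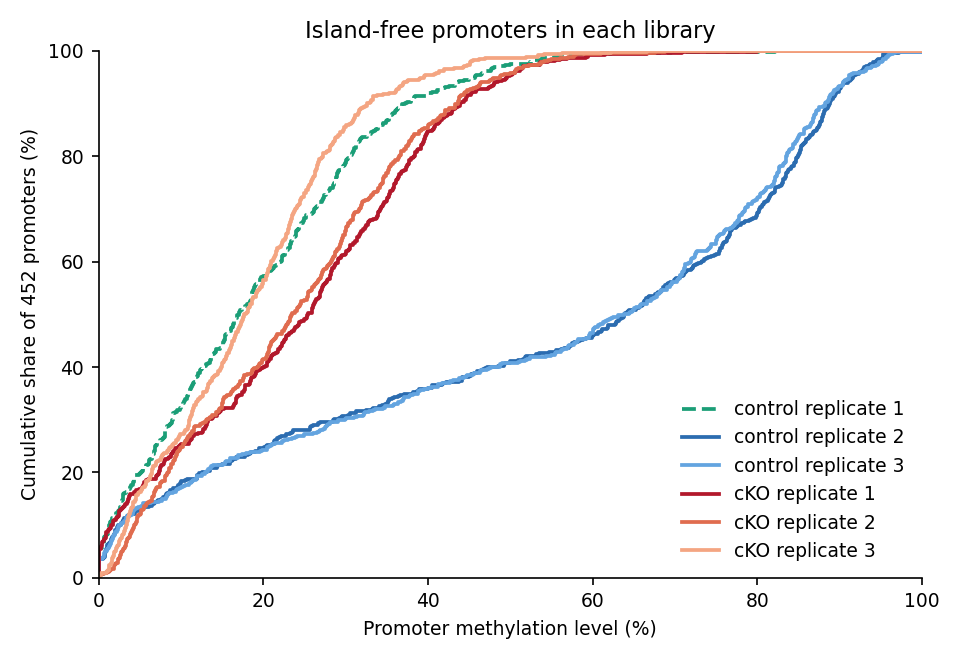
Cumulative share (%) of the 452 island-free promoters at or below each methylation level (%), one line per library. Control replicates 2 and 3 have medians of 63.9% and 64.1% and run far to the right, while control replicate 1 (dashed, median 17.0%) runs with the 3 cKO libraries (medians 25.4%, 23.5% and 17.8%).

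Promoter by promoter, 348 of the 452 (77%) had all 3 cKO libraries below both control replicates 2 and 3, against 12% of all promoters tested. Below all 3 controls were 60 members (13.3%), against 2.22% of all promoters. In the other direction 9 (1.99%) had all 3 above, against 18.3% of all promoters, and 95 overlapped. A fall of 25 points or more was seen at 281 members (62.2%, against 5.08% of all promoters), and none rose by 25 points. Against the mean of all 3 controls, 200 (44.2%) fell that far, against 3.16% of all promoters. Only 326 members had a control level of 25% or more and so could fall that far. Of these 326, 320 (98.2%) had all cKO libraries below control replicates 2 and 3, and the median fall was 44.8 points. Among island promoters 471 had such a level, and of these 429 (91.1%) were below both controls and 304 fell by 25 points or more.

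The count of promoters past the test depended on the libraries. Calls came from a quasi-binomial F test moderated with limma, and needed 25 points between the group means with a q (Benjamini-Hochberg) under 0.01. With all 6 libraries, 0 members were called lower and 0 higher, as were 0% of all promoters tested, and limma on log2 ratios also called 0. At an unadjusted p under 0.05 there were 110 (24.3%) among the members with all 6 libraries, against 2.21% of all promoters. Without control replicate 1, 44 members (9.73%) were called lower and 0 higher, against 0.806% and 0% of all promoters, and 319 (70.6%, against 9%) had an unadjusted p under 0.05. The 44 were 46.3% of the 95 promoters called, beside 46.6% of the autosomal promoters with a control level of 50% or more. Calls took 13.5% of the 326 members and 10.4% of the 471 island promoters with a level of 25% or more. Their q values lay between 0.00842 and 0.01 and their falls between 32.8 and 69.2 points. With autosomes alone in the fit, 201 members (44.5%) were called lower against 3.63% of all autosomal promoters. Leaving out any one more of the 5 libraries left 0 calls in the fit of all chromosomes.

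Most methylated members kept a like share of their level. At the 269 with a control level of 50% or more, the cKO level was 39.2% of the control level at the median, with the 10th and 90th percentiles at 29.5% and 51.7%. The scatter of cKO against control levels is accordingly close to a line well under the diagonal. The share left was 43.8% at the median of the 106 promoters with control levels from 10 to 50%. Control replicates 2 and 3 differed by 4.72 points at the median member and by 10 points or more at 95 members, which bounds what a single promoter can show.

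**Figure D2:**
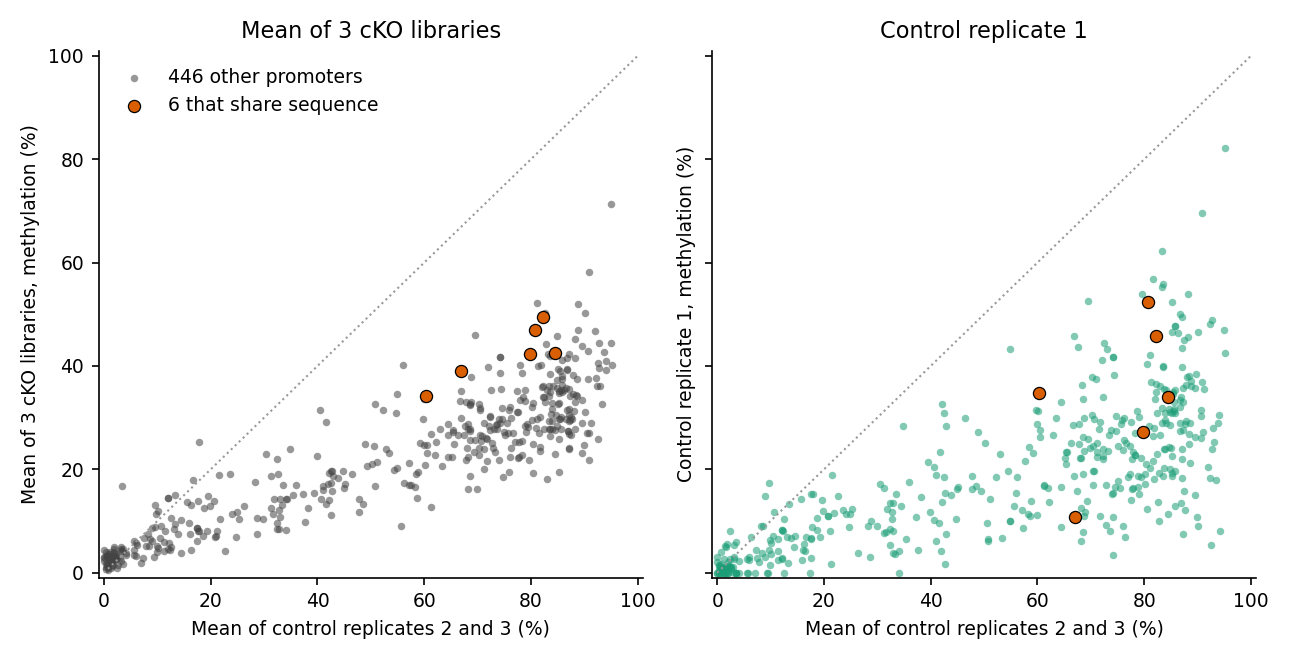
Methylation of each island-free promoter (%) in cKO (left, mean of 3 libraries) and in control replicate 1 (right) against the mean of control replicates 2 and 3 (%), with equality dotted. The points lie far under the line in both panels wherever control was high, and the 6 promoters that share sequence (orange) lie in the upper part of the cloud in the left panel, with 50.4 to 60.1% of their control level left, as do 27 of the other 263 promoters of 50% or more that kept over 50%, up to 75.1%.

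The level left was compared with methylated island promoters at matched levels, with the match made on control replicate 2 and the level read against control replicate 3. Among promoters at 75 to 100% in control replicate 2, the 175 island-free promoters averaged 45.2%, 43.5% and 33.2% of control replicate 3 in cKO replicates 1, 2 and 3. The 221 island promoters of that range averaged 53.8%, 52.9% and 44.7%. The island-free value was the lower one in each cKO library, there and in the ranges from 10 to 25%, 25 to 50% and 50 to 75%. Control replicate 1 showed the same order, with 35.8% at island-free and 43.9% at island promoters of the highest range. At 10 to 25%, however, the cKO levels themselves were higher at island-free promoters, 9.21%, 9.72% and 7.78% against 8.52%, 8.13% and 6.77%. Control replicate 3 was at 18.4% and 13.9% there, so the order in that range rests on the control chosen. At 25 to 50% the mean cKO levels were 16.9% and 17.0%. The shares are given as a description and were not tested.

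**Figure D3:**
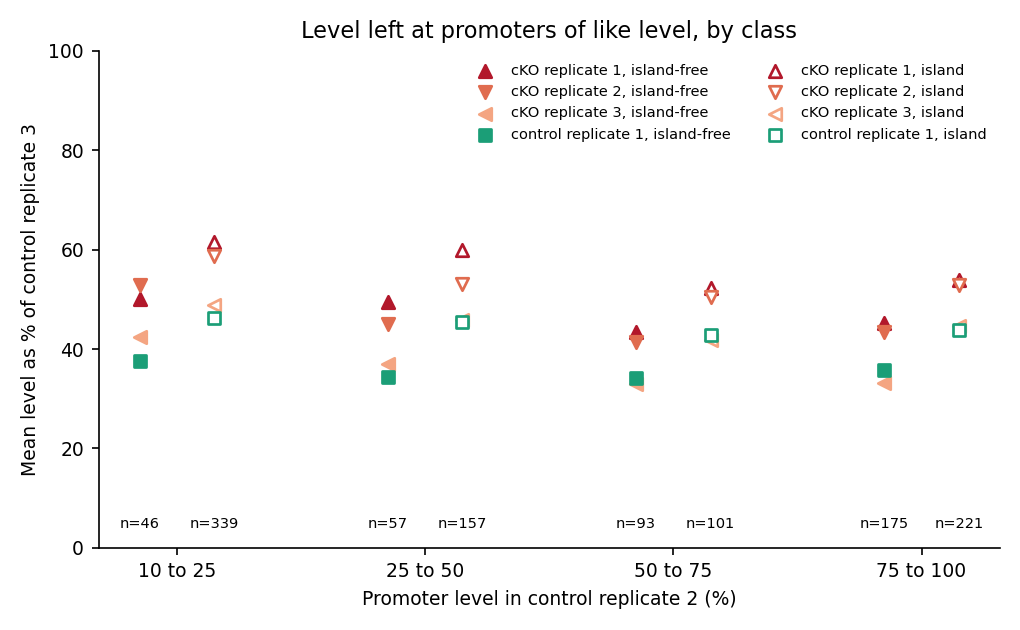
Mean level as a percentage of control replicate 3, for island-free (filled) and island (open) promoters grouped by their level in control replicate 2 (%), one point for each cKO library and for control replicate 1, with the number of promoters at the foot. In each range every library has its filled point below its open one, as at 75 to 100% with 33.2 to 45.2% against 44.7 to 53.8% in cKO.

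Along the promoter the control level varied and the share left varied little. Cytosines in the 250-bp bin farthest upstream had 66.9% in control and 27.6% in cKO, and those in the last 250 bp before the 5′ end had 46.3% and 19.7%. In the first 250 bp of the gene the levels were 51.0% and 21.9%. The share left lay between 41.2% and 42.9% in all 6 bins. A direct comparison used the 49 promoters with covered cytosines both within 250 bp of the 5′ end and at least 500 bp upstream. Their near cytosines had 51.4% in control and 21.9% in cKO, and their far cytosines 70.3% and 28.4%. The near level was thus 18.9 points lower in control and 6.46 points lower in cKO, a change of 12.4 points (exact permutation p = 0.1, adjusted 0.1). With all 6 libraries the change was 7.70 points (exact permutation p = 0.3, adjusted 0.3). Against control replicates 2 and 3, the near part kept 42.6% of its level and the far part 40.35%. A like share lost from both parts also narrows a difference in points, so this change is not separate from the fall in level. At a minimum coverage of 20 reads only 10 promoters remained and the change was 1.99 points.

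**Figure D4:**
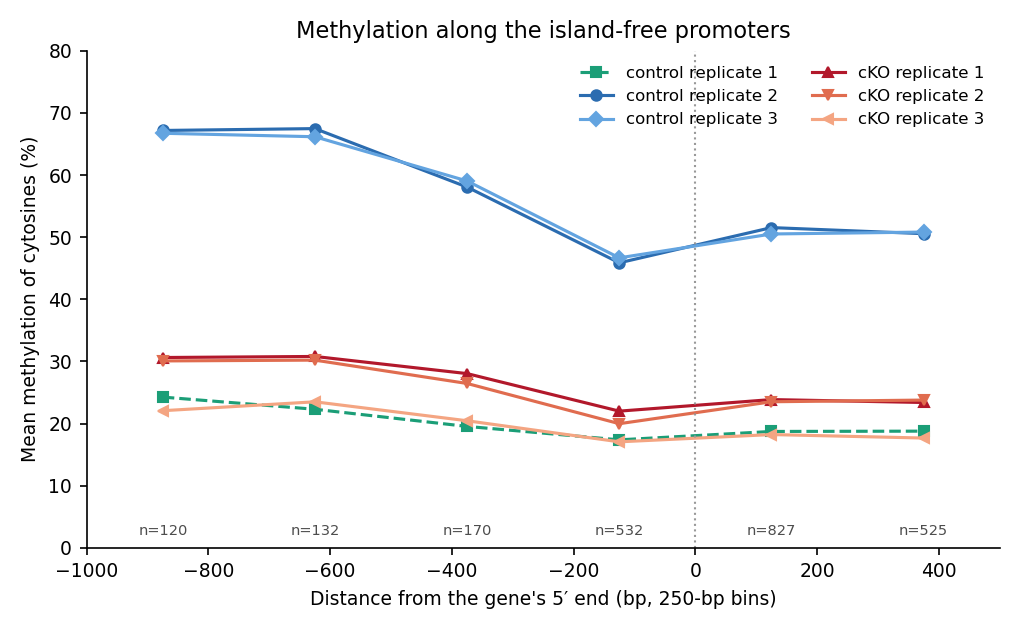
Mean methylation (%) of the members' cytosines in 250-bp bins by distance from the gene's 5′ end (bp), one line per library, with the number of cytosines under each bin. All libraries dip just upstream of the 5′ end, control replicates 2 and 3 from 66.9% to 46.3% on average and the cKO libraries from 27.6% to 19.7%.

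Cytosines in exons and outside them were alike, with 53.2% and 51.0% in control and 22.4% and 22.0% in cKO. Soft-masked repeats differed. The 130 member cytosines in repeats averaged 61.7% in control and 31.9% in cKO, so 51.7% of the level was left, against 41.9% outside repeats. Leaving out 6 gene models, picked out after their values were seen, removed this excess. They held 45 of the 130, with 63.7% of the level left, so leaving them out is no independent test. The 85 remaining repeat cytosines kept 42.1%, and the cytosines outside repeats 41.9%.

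The 6 gene models were Gm10715, Gm10717, Gm10718, Gm10800, Gm10801 and Gm21738, predicted genes on chromosomes 2, 9 and 14. Each shared at least 100 words of 31 bases, counted on both strands, with at least 4 of the others, and they were picked out after their values were seen. Their promoters were AT-rich, with 29.4 to 36.7% GC, and 29.2 to 72.8% of bases were repeated 234 bases on, against 25.3% at the median of all members and at most 29.1% in members that share no sequence. Gm10800 and Gm10801, at 29.2% and 30.0%, barely exceeded that highest value, and the others had 56.0 to 72.8%. Tandem units of about this length are known from the major satellite of mouse pericentromeres. The Gm21738 stretch printed above is one of these. Mean levels of the 6 were 34.2%, 78.9% and 72.7% in control replicates 1, 2 and 3 against 43.1%, 45.1% and 39.1% in cKO, so 56.0% was left. At the other 263 promoters with a control level of 50% or more, the median share left was 39.1%, with over 50% left at 27 of them. The thinnest library of Gm10801 held 1657 reads, the most of any member. Reads of sequence this similar may be placed at more than one copy, so the values of single gene models are uncertain. A further 22 members shared as many words with 1 or 2 others, among them the overlapping promoters of Rag1 and B230118H07Rik and the chemokine genes Cxcl2 and Cxcl3.

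The members nearest to the island threshold were less often methylated. Split by their highest window ratio, the third nearest to the island threshold (0.538 to 0.597) averaged 48.3% in control and 39 of 151 were under 10%, while the third with the lowest ratio averaged 57.7% and 15 of 150 were under 10%. The shares left were 41.8% and 41.9%. By GC content the third with least GC kept 44.5% and the others 40.2% and 40.0%. Just inside the threshold, 226 members with a ratio of 0.5 to 0.6 had a median control level of 59.8%, and just outside it 298 island promoters of 0.6 to 0.7 had 8.48%. The 137 members with exactly 3 covered cytosines averaged 55.9%, and 210 promoters that missed the rule with 2 averaged 62.3%.

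Core promoter motifs differed between the classes as sequence. The TATA box letters TATAAA occurred on either strand within 100 bp upstream in 6.42% of members, 2.19% of island promoters and 2.37% of all promoters measured. The letters GGGCGG, a GC box, occurred in 14.4%, 48.2% and 46.9%, and CCAAT in 12.2%, 21.9% and 21.6%. Within the members, GGGCGG was found in 18 of the 77 with a control level under 10% and in 23 of the 269 at 50% or more.

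The 10 largest falls among called members of at least 5 cytosines and 50 reads were at Tstd1, Rinl, Cebpe, Fgb, Kncn, Nedd9, Gm20671, Sdr16c5, E130218I03Rik and Cd6. Tstd1 was at 88.8% and 91.2% in control replicates 2 and 3 and at 30.0%, 23.3% and 20.6% in cKO, a fall of 65.4 points (q = 0.00842, moderated quasi-binomial F test with limma, without control replicate 1). Control replicate 1 had 10.9% there. Rinl, a relative of the Rab guanine exchange factor Rin family, was at 87.3% and 86.9% in those controls and at 33.9%, 24.4% and 22.3% in cKO. Cebpe, a transcription factor of late granulocyte development, was at 87.7% and 87.2% and at 28.7%, 34.6% and 25.5%. In all 10 the highest cKO library lay 46.8 points or more under the lower of control replicates 2 and 3, as the plot of named promoters shows. With all 6 libraries q was 0.975 at each of them, and the differences shrank to between -43.2 and -33.9 points.

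Fgb, the beta chain of fibrinogen made in liver, was at 88.8% and 82.6% in control replicates 2 and 3 against 32.3%, 32.0% and 19.4% in cKO. Nedd9, a docking protein of focal adhesions, was at 83.7% and 83.3%, and at 28.6%, 28.1% and 22.8% in cKO. At Cd6, a T cell surface receptor, they were 85.2% and 88.3%, and 32.7%, 30.0% and 31.8%. Of the 10, control replicate 1 exceeded all cKO libraries only at Kncn (45.0% against 26.3 to 36.7%) and, by under 1 point, at Sdr16c5.

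The 6 that kept most of a control level of 50% or more, at the same minima, were Gm10801, Gm42417, Gm21738, Fam47e, Pf4 and Slc25a34. Gm10801 and Gm21738 are of the shared-sequence set. Pf4, platelet factor 4, was at 91.3% and 89.0% in control replicates 2 and 3, at 46.6% in control replicate 1, and at 52.2%, 57.1% and 41.3% in cKO, so 55.7% was left from 11 cytosines. Slc25a34, a mitochondrial carrier, kept 54.95%, from 69.1% and 68.5% to 37.4%, 46.2% and 29.8%. Gm42417 and Fam47e began at only 52.3% and 54.8% and kept 60.1% and 56.4%. Every cKO library was below both controls at all 6. Among members with fewer cytosines, Cela3b, a pancreatic elastase named after its values were seen, kept the most, with 90.2% and 100% in control and 80%, 67.5% and 66.7% in cKO from 3 cytosines and as few as 28 reads (q = 0.254).

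**Figure D5:**
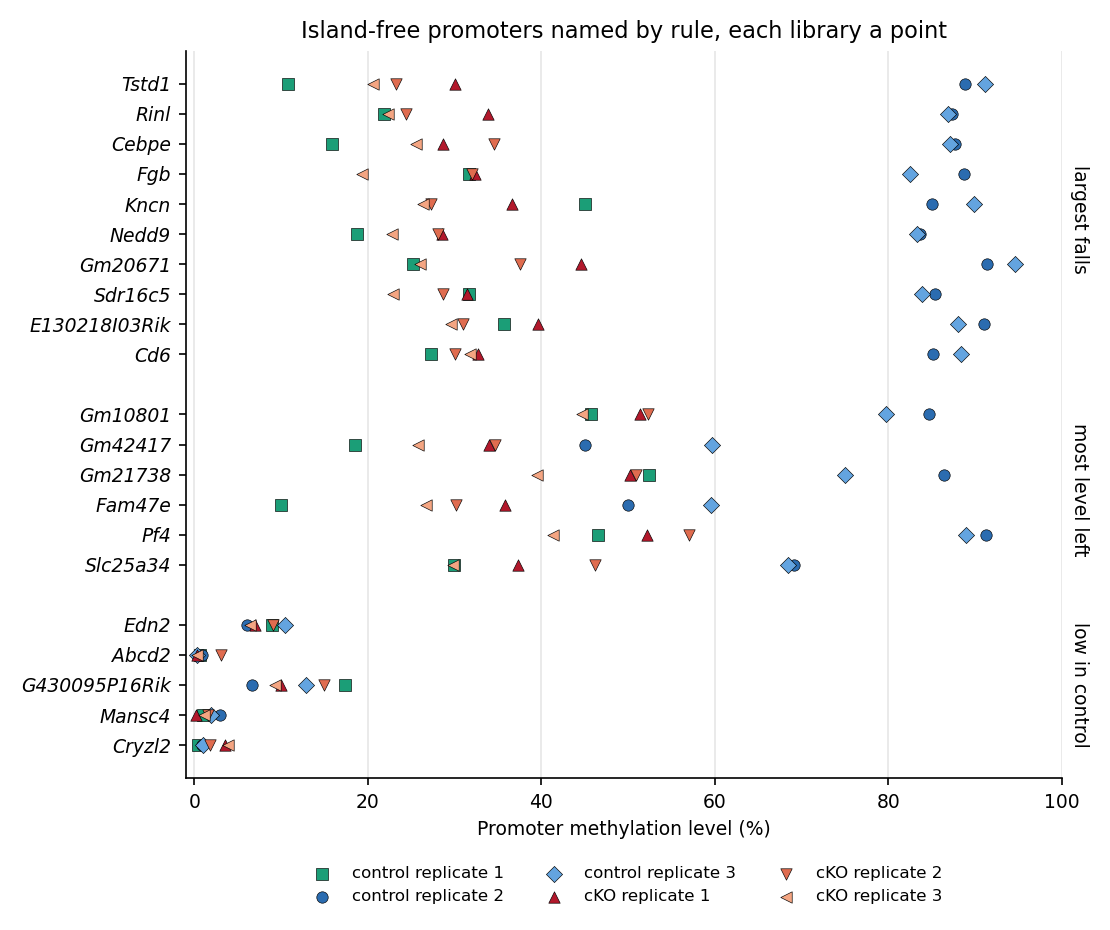
Promoter methylation (%) of 21 island-free promoters named by rule, in 3 blocks with one marker per library. In the upper 2 blocks every cKO point lies left of the points of control replicates 2 and 3, as at Tstd1 with 20.6 to 30.0% against 88.8% and 91.2%, and in the lowest block all libraries lie under 20%.

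The 77 members under 10% in control stayed low. Their median was 2.13% in control and 3.26% in cKO, and 9 of them (11.7%, against 18.3% of all promoters) had all 3 cKO libraries above both control replicates 2 and 3, while 4 had all 3 below. Among those with most reads, Edn2, the vasoactive peptide endothelin 2, was at 9%, 6.10% and 10.5% in the 3 controls and 6.98%, 9.08% and 6.42% in cKO. Abcd2, a peroxisomal fatty acid transporter, had at most 3.14% in any library. Cryzl2 was at 0.422%, 0.935% and 1.03% in the controls and 3.59%, 1.82% and 3.89% in cKO, and it did not pass the test (q = 0.733). G430095P16Rik was highest in control replicate 1 with 17.4%.

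No member rose past the test. The largest rises at the minima were of 2.75 to 4.33 points, at Nrxn3, Gal3st4, Asb4, Adamts5 and Tef. Nrxn3, a presynaptic adhesion protein and the one promoter of the cortical progenitor and neuronal list, was at 0% in all 3 controls and in cKO replicate 1, and at 6.79% and 6.21% in cKO replicates 2 and 3. Those 2 libraries also had the highest medians over island promoters, 1.55% and 1.49% against 0.538 to 0.626% in the other 4, and the part of this in the small rises was not tested. Fam84b, named after its values were seen, rose most of all members, from 2.38% and 4.55% to 21.6%, 11.1% and 17.4%, with 3 cytosines, 29 reads in the thinnest library and q = 0.659.

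Of the 452 genes, 93 belonged to one or more of 17 lists of tissues and pathways, and 359 to none. Island-free promoters, 3.92% of the autosomal promoters measured, took unlike shares of the lists, which were not tested for enrichment. They made up 10 of the 17 measured autosomal promoters of lymphocytes and natural killer cells, 8 of 16 of the liver list, 8 of 16 of the digestive tract and exocrine pancreas, 13 of 34 of striated muscle, and 10 of 29 of keratins and epidermal differentiation. They were 1 of 71 in the cortical progenitor and neuronal list, 3 of 77 in germline and testis (3.90%), and 1 of 22 in endothelial and mural cells. Calls in the lists are those without control replicate 1, first with all chromosomes in the fit (44 of the 452 members, 0.806% of all promoters) and then with autosomes alone (201 members, 3.63%). With all 6 libraries both fits called 0. Counts of list members with every cKO library below control replicates 2 and 3 are to be read against 348 of 452 members, and 320 of the 326 with a level of 25% or more. Promoter methylation does not measure how many cells of a type were present, and fewer cells of a type and a lower level within them cannot be told apart in whole cortex.

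Blood cell genes were mostly methylated in control. The 10 lymphocyte members had a median of 72.4% in control and 30.5% in cKO, 2 (Zap70 and Cd6) were called lower (5 with autosomes alone), and all 10 had every cKO library below both controls. Zap70, a kinase of the T cell receptor, was at 87.2% and 87.1% in control replicates 2 and 3 and at 40.7%, 37.5% and 28.2% in cKO. Rag1, which cuts antigen receptor genes, began low, with 20.4% and 20.9%, and was at 9.79%, 15.2% and 16.5% in cKO. Of the 3 myeloid members, Fcgr4 and Cebpe were called, and all 3 with autosomes alone. Fcgr4, an IgG receptor, fell most of all called members, by 69.2 points, from 91.5% and 90.4% to 22.0%, 25.4% and 17.9%, with 3 cytosines. The third, Itgal, an integrin of leukocytes, went from 83.4% to 29.4% on average and was called only in the fit of autosomes.

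Of the 4 erythroid and platelet members, 0 were called with all chromosomes in the fit and 3 with autosomes alone, and all 4 had every cKO library below both controls. Itga2b, the platelet integrin subunit, averaged 70.3% in control and 22.8% in cKO, while Epor, the erythropoietin receptor, averaged 15.9% and 9.66%. The chemokine and cytokine members ran from 1.86% to 80.3% in control, and 1 of 6 was called (2 with autosomes alone). Ccl22, a chemokine that attracts T cells, was called with a fall of 52.6 points, and its levels were 77.4% and 78.2% in control replicates 2 and 3 against 29.6%, 21.6% and 24.4% in cKO. The neutrophil chemokines Cxcl2 and Cxcl3 were under 6% in every library.

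Liver genes were uniformly high in control. All 8 had control levels of 70.4% or more and cKO libraries below both controls, with medians of 74.7% and 29.6%, and 1, Fgb, was called (6 with autosomes alone). Apoa4, an apolipoprotein, averaged 91.3% in control and 28.9% in cKO, and Pck1, the key enzyme of gluconeogenesis, 70.4% and 31.4%. Of the 8 serine proteases and inhibitors, 1 was called, or 7 with autosomes alone. The 1 was Tmprss6, a regulator of hepcidin, with 86.3% and 84.4% in control and 39.8%, 32.1% and 26.6% in cKO. Hpn, the liver protease hepsin, averaged 38.2% and 12.5%. Of the 3 cytochrome P450 members, Cyp2w1 averaged 75.5% and 29.0% from 3 cytosines, and Cyp2j6 was under 5% in every library.

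Keratin and epidermal members had a median of 79.6% in control and 28.0% in cKO, and 2 of 10, Krt42 and Krt79, were called (6 with autosomes alone). Krt42 was at 83.2% and 80.1% in control replicates 2 and 3 against 26.2%, 36.7% and 27.2% in cKO, from 12 cytosines. Krt80 was the exception at 9.64% in control and 13.04% in cKO. Digestive members had a median of 82.6% in control, and 0 of the 8 were called with all chromosomes in the fit and 4 with autosomes alone. Gkn1, a stomach mucosal protein, was at 93.7% and 93.8% in control replicates 2 and 3 and at 48.2%, 47.8% and 31.9% in cKO, from 4 cytosines. Cck, the gut hormone cholecystokinin that cortical neurons also make, was at 2.67% and 4.21% in control replicates 2 and 3 and at 1.09%, 6.94% and 4.49% in cKO.

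The 13 muscle members ran from 5.91% to 92.0% in control. With all chromosomes in the fit 0 were called and with autosomes alone 6, and 10 had every cKO library below both controls. Myog, a transcription factor of muscle differentiation, averaged 84.9% in control and 37.2% in cKO, and Tnni2, fast skeletal troponin I, 85.2% and 35.2%. Acta1, skeletal alpha actin, overlapped between the groups, with 40.5% and 26.6% in control replicates 2 and 3 against 28.3%, 13.01% and 9.86% in cKO. The 6 sensory and eye members averaged 41.9 to 83.6% in control, with cKO below both controls at all 6. Olfr1342, an olfactory receptor, was the 1 called in either fit, with 57.4% and 57.1% in those controls and 17.7%, 16.9% and 16.1% in cKO.

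Few members were in the lists of cortical cells, though 359 of the 452 were in no list. The 3 of the glia list were methylated in control. Mag, a myelin glycoprotein, was at 65.3% and 69.5% in control replicates 2 and 3 against 36.4%, 22.3% and 21.2% in cKO, and the astrocyte enzyme Aldh1l1 averaged 65.6% and 24.97%. Pmp22, a peripheral myelin protein, averaged 68.1% and 16.3%. Nos3, the endothelial nitric oxide synthase, was at 63.2% and 86.1% and at 30.4%, 29.5% and 29.1% in cKO. Of these 4, 0 were called in the fit of all chromosomes and 3 with autosomes alone. Germline members were only 3, Spata46, Spaca4 and Lyzl6, with medians of 81.2% in control and 44.2% in cKO. The fit of all chromosomes called 0 of them and that of autosomes 1, Spata46. Lyzl6, a sperm lysozyme-like protein, kept 64.4% of its level, from 3 cytosines and 34 reads.

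Interferon and stress genes completed the lists. Of the 5 interferon members 4 had all cKO libraries below both controls, and 0 were called with all chromosomes in the fit and 1 with autosomes alone. Irf9, the DNA-binding subunit of the interferon-stimulated factor, was at 29.4% and 28.1% in control replicates 2 and 3 against 8.54%, 15.0% and 8.30% in cKO, and Oas2, an antiviral synthetase, averaged 74.1% and 21.8%. Irgm2, an immunity GTPase, overlapped with 23.6% and 11.5% in those controls and 12.7%, 11.6% and 17.5% in cKO. Its promoter covers most of the same bases as that of Igtp, another of the 5, so these are not separate regions. Igtp had 36.3% and 45.6% in those controls and 17.4%, 15.2% and 17.7% in cKO. Atf3, a stress transcription factor, was at 83.3% and 82.1%, with a spread of 44.8%, 34.5% and 19.6% in cKO, while Slc7a11, the cystine transporter, was under 6% in every library. Across the lists, the median share left at members with a control level of 25% or more lay between 33.9% for the myeloid and 53.4% for the germline list, with 39.6% over all such members.

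The cKO libraries were not equal. Replicate 3 was the lowest of the 3 at 263 of the 452 promoters, replicate 1 at 112 and replicate 2 at 80, with ties counted for each. Control replicate 1 lay below all cKO libraries at 166 promoters, within their range at 215 and above all of them at 71. It lay below both other controls at 396. Across the 452 promoters, which share libraries and base composition and are no replicates, Pearson's r was 0.956 between control replicates 2 and 3, 0.757 to 0.797 among cKO libraries and 0.776 to 0.845 between control replicates 2 and 3 and the cKO libraries. Control replicate 1 had 0.697 to 0.758 with the cKO libraries and 0.739 and 0.751 with the other controls.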

How the data were processed

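Ox-RRBS libraries were made from E16 whole cortex, 3 Uhrf1 +/- controls and 3 cKO. The authors mapped reads with Genomatix software to GRCm38 without mismatches, and cytosines of 5 or fewer reads were left out of what they deposited. The submitters' processing notes name GRCm38 and methylKit. For each cytosine the deposited files hold a read count as coverage and the percent of reads that were C or T, not normalised between libraries. Methylated reads were recovered from both and summed per promoter (GENCODE M21, 21938 nuclear protein-coding genes). Members were taken from autosomes alone.

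The binomial fit held all 11787 promoters. Its dispersion was moderated with limma 3.58.1 (R 4.3.3; prior from promoters of 5 to 95% pooled methylation, floor 1) and calls needed q under 0.01 and 25 points. Means were compared with two-sided exact permutation tests. The fit was tested on simulated reads for the libraries other than control replicate 1. The spread between simulated libraries was set in advance rather than taken from the data, and no outlying library was simulated. This run therefore does not bear on how the calls depend on the libraries, or on how many calls are false here. Python 3.11.15, numpy 2.4.6, pandas 2.3.3 and matplotlib 3.10.9 were used. Reads are not independent molecules.

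The members and lists were chosen with earlier results of these data known. Genes were named by rule, with minima of 5 cytosines and 50 reads outside the lists. These were the 10 largest falls among called members with all cKO libraries below both controls, the 6 largest shares left at 50% or more in control, the 6 deepest members under 10% (1 of them is not reported here) and the 5 largest rises. Each list gave its deepest member of 25% or more in control and its largest called fall, without these minima. Further members of the lists were named after their values were seen. Upstream sequences were sought for the first of these genes and shown where covered CpGs lay clear of exons. The check for replicate numbers as pairs gave correlations of deviations from the group means over the members of -0.233, 0.122 and -0.272 for the numbers 1, 2 and 3. Libraries of unlike number gave -0.362 to 0.374. Control replicate 1 enters the control mean and so every control deviation, and the check cannot settle pairing.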

Additional observations from a re-analysis of the deposited data

How the results depend on the processing

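The directions of the mean difference, of its excess over island promoters and of the near minus far change held under every alternative run, and no exact test passed 0.05 in any of them, which designs of this size do not allow. Leaving out 1 of the 6 libraries, the mean difference ranged from -31.0 to -13.9 points, the excess from -29.8 to -13.7 and the near minus far change from 4.97 to 12.4. Starting without control replicate 1, leaving out 1 more gave -32.1 to -29.2, -31.0 to -27.9 and 11.4 to 13.6 points. Defining islands by 500-bp windows of 55% GC and a ratio of 0.65 made 1426 promoters island-free, and the mean difference without control replicate 1 was then -17.9 points. Without the 6 gene models that share sequence, an alternative chosen after seeing the data, it was -31.0 points.

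Counts of calls were the least stable values. With all 6 libraries 0 members were called lower, but 200 by the plain binomial test, and 0 to 44 when 1 library was left out, with 44 only without control replicate 1. Against 44 without control replicate 1, there were 73 at a minimum coverage of 10, 0 with 5 or more cytosines, 0 with the promoter from 500 bp upstream to 250 bp downstream, 86 with islands by 500-bp windows, 201 with autosomes alone, 188 at q under 0.05, 281 by the plain binomial test, 0 with each promoter's own dispersion, 217 by limma on log2 ratios, and 0 in each run that left out 1 more library. With autosomes alone, leaving out 1 more gave 0 without control replicate 2, 54 without control replicate 3, and 197, 126 and 139 without cKO replicates 1, 2 and 3, runs added after seeing the data. No setting called a member higher. The cause of these shifts was not tested. Whether the replicate numbers pair the libraries was not settled. The replicate block left the mean difference at -19.6 points (exact sign-flip test, p = 0.5), the excess at -19.1, the near minus far change at 7.70 and calls at 0. Of the named genes' differences without control replicate 1, 192 of the alternative values kept direction and call, 4 gained the call, 90 lost it and 5 changed sign. Those 5 were in 3 low promoters. Leaving out 1 library gave -2.96 to 1.39 points at Edn2, -0.32 to 1.11 at Abcd2 and -1.48 to 4.72 at G430095P16Rik, while Abcd2 had -0.0088 points with the shorter promoter.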
